A study of Caenorhabditis elegans with 2 samples.

Results

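P granules are RNA and protein condensates that mark the germ line of Caenorhabditis elegans, and several germline Argonautes, the proteins that carry small RNAs, reside in them. The small RNAs that fell on 6 genes of this system were examined. The genes were glh-1 (T21G5.3), pgl-1 (ZK381.4), pgl-3 (C18G1.4), cgh-1 (C07H6.5), csr-1 (F20D12.1) and prg-1 (D2030.6). They were chosen by name, and a cluster of overlapping reads was counted for a gene when the deposited annotation placed it on an exon of that gene, in sense or in antisense. This gave 150 of the 51569 deposited clusters, 130 in sense with 238 reads and 20 in antisense with 24 reads. None of the 150 clusters was placed on an exon of a second gene.

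The series describes 2 small RNA libraries from lysed whole worms, both of the strain labelled fem-1. Mutants of the gene fem-1 are known to make oocytes and no sperm. The monophosphate library was made to sequence small RNAs that carry a 5′ monophosphate, and its deposited clusters hold 1417144 reads. Of these, 67660 lay in sense on exons of protein-coding genes, and the 6 genes had 0.352% of them. The polyphosphatase library was made to capture triphosphate-bearing secondary siRNAs as well, and it was not analysed here. The sources used here do not give the allele, stage or temperature. Each group has 1 library, so there was no replicate and no test between conditions, and the 95% intervals below (exact Poisson for reads, exact binomial for shares) cover counting error only. In whole worms, fewer germ cells and less RNA per cell cannot be told apart.

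Germ granules hold maternal messenger RNAs together with helicases, scaffold proteins and Argonautes. GLH-1 is a DEAD-box helicase of the Vasa family, and PGL-1 and PGL-3 are RGG-box proteins that form the granule scaffold. CGH-1 is a DEAD-box helicase of the DDX6 family that protects maternal messenger RNAs in the germ line. CSR-1 is an Argonaute that binds siRNAs antisense to germline-expressed genes, and PRG-1 is the Piwi protein that binds the worm piRNAs. Secondary siRNAs carry a triphosphate, so a monophosphate library captures them poorly, whereas fragments of messenger RNA that carry a monophosphate can be ligated.

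Markers of other cell types, listed with earlier results of these data known, were compared with the strain's label. All 18 genes of the oocyte and embryo list had sense reads (1070 in total), whereas 4 of 18 sperm genes had any (5 in total). The 4 were spe-15 with 2 reads and spe-9, gsp-3 and gsp-4 with 1 each. Among all protein-coding genes, 35.5% had at least 1 sense read.

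Sense reads were found on all 6 genes, and cgh-1 had more per length than any of the other 5. At least 1 sense read was found on 35.5% of 19965 protein-coding genes, and at least 19, the lowest count among the 6, on 3.19%. The median over the 6 genes was 28 sense reads, against 0 over all protein-coding genes and 3 over those with any. On the scale of sense exon reads per kb of gene span, introns included, the median was 9.67 for the 6 genes and 1.09 for protein-coding genes with any sense read.

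The helicase gene cgh-1 had 106 sense reads (95% interval 86.8 to 128) in 35 clusters on chromosome III, or 42.2 reads per kb (34.5 to 51.0). This level ranked 134th of the 19965 genes. Its interval did not overlap that of any other of the 6 genes. The clusters together covered 1195 nt, or 47.6% of the gene span.

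Of the scaffold genes, pgl-1 had 33 sense reads (22.7 to 46.3) in 26 clusters on chromosome IV, and pgl-3 had 24 (15.4 to 35.7) in 17 clusters on chromosome V. Per kb these were 11.5 (7.90 to 16.1) and 9.20 (5.89 to 13.7), at ranks 406 and 495. The Vasa-type helicase gene glh-1 had 31 sense reads (21.1 to 44.0) in 19 clusters on chromosome I, or 10.1 per kb (6.89 to 14.4), at rank 447. The intervals of these 3 genes overlapped.

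The Argonaute genes had the lowest values of the 6 per kb, although the interval of prg-1 lay apart only from that of cgh-1. prg-1 had 25 sense reads (16.2 to 36.9) in 20 clusters on chromosome I, or 8.23 per kb (5.32 to 12.1), at rank 559. csr-1 had 19 (11.4 to 29.7) in 13 clusters on chromosome IV, or 3.88 per kb (2.34 to 6.07), at rank 1275. Per kb, the interval of csr-1 overlapped those of prg-1 and pgl-3 and lay below those of glh-1, pgl-1 and cgh-1. In read counts, not divided by the span, it overlapped those of glh-1 (21.1 to 44.0) and pgl-1 (22.7 to 46.3) too. There it lay below that of cgh-1 alone. The gene spans, which include introns and come from another genome build, were 4891 bp for csr-1 and between 2513 and 3059 bp for the others.

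**Figure D1:**
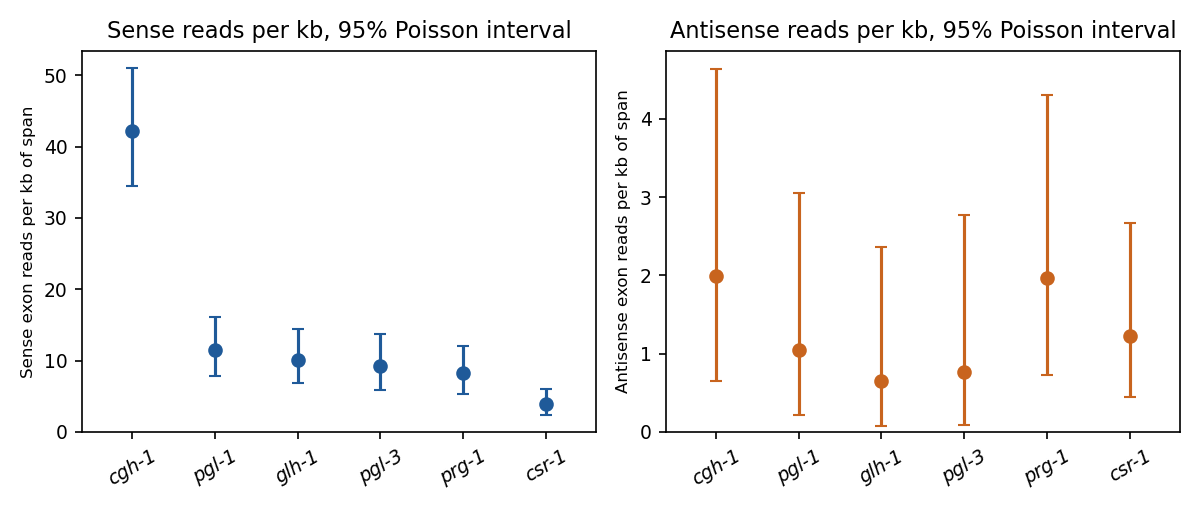
Sense exon reads (left) and antisense exon reads (right) per kb of gene span for each gene; points are the counts of 1 library and bars are exact Poisson 95% intervals. In sense, cgh-1 stands at 42.2 and the other 5 genes between 3.88 and 11.5, while all antisense intervals overlap.

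The sense reads were spread along the messenger RNAs in many small clusters, and no cluster held more than 21.1% of the sense reads of its gene. Of the 130 sense clusters, 84 held 1 read (64.6%, 55.8 to 72.8), against 76.5% (76.1 to 77.0) of the sense exon clusters of other protein-coding genes. In cgh-1 13 of 35 held 1 read (37.1%, 21.5 to 55.1), and in the other 5 genes together 71 of 95 did (74.7%, 64.8 to 83.1), a split made after the values were seen. The 238 sense reads were 228 distinct sequences. The richest cluster of a gene held 11 reads in cgh-1 (III 7496332 to 7496440, exon 4, 10.4% of the gene's sense reads). It held 6 in glh-1 (I 6854749 to 6854776, in the 5′ UTR in exon 1, 19.4%), which were 2 distinct sequences. In pgl-3 it held 4 (V 4756528 to 4756568, exon 3, 16.7%) and in csr-1 also 4 (IV 7959596 to 7959630, exon 6, 21.1%). No sense cluster of pgl-1 or prg-1 held more than 2 reads. Coordinates are those of the deposited clusters, whose genome build the sources used here do not state.

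**Figure D2:**
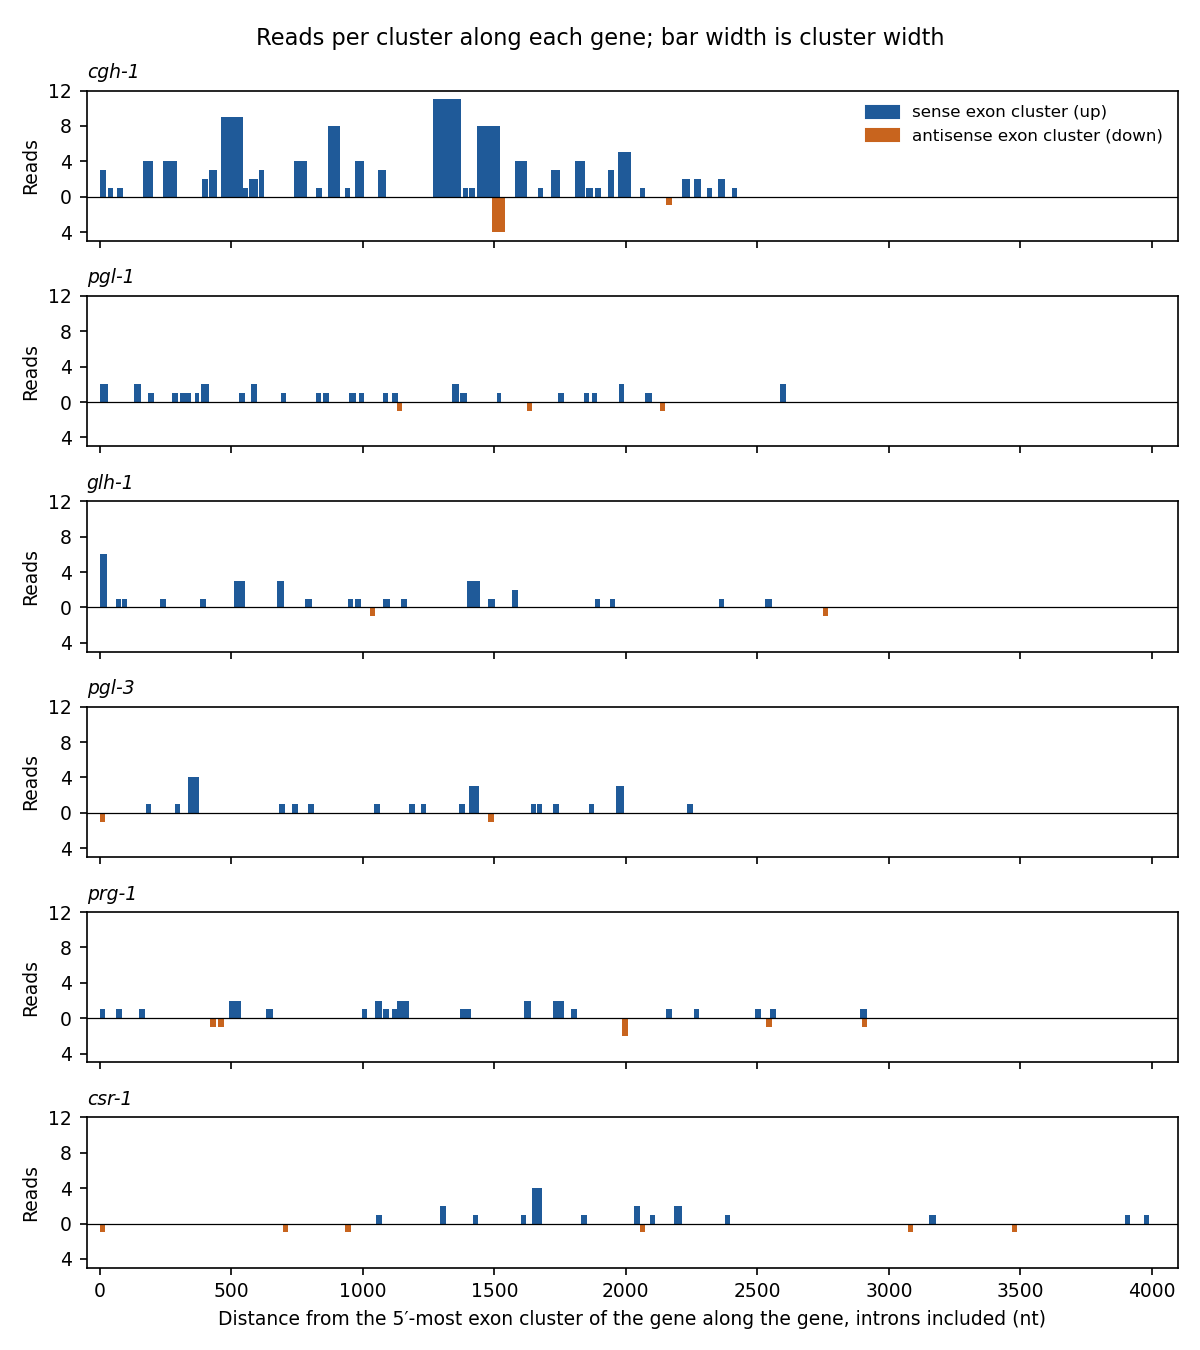
Exon clusters along each gene, 5′ to 3′; the horizontal axis is the distance in nt from the 5′-most cluster with introns included, bar width is cluster width and bar height is reads, sense upward and antisense downward. The 35 sense clusters of cgh-1 reach 11 reads, and those of pgl-1 and prg-1 do not exceed 2.

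By position, most sense reads lay in coding sequence. Clusters placed in coding sequence alone held 187 of the 238 sense reads (78.6%, 72.8 to 83.6), clusters in 3′ UTRs 37 (15.5%, 11.2 to 20.8), the glh-1 cluster in the 5′ UTR 6, and a cluster over the stop codon of cgh-1 8. The 3′ UTR share was carried by cgh-1, with 31 of its 106 sense reads (29.2%, 20.8 to 38.9) in 14 such clusters. In the other 5 genes 3′ UTRs held 0 reads in glh-1, 2 in pgl-1, 1 in pgl-3, 2 in csr-1 and 1 in prg-1. UTR lengths were not available, so these counts are not levels per length.

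The 3′ UTR reads of cgh-1 ran past an annotated polyadenylation site. The cluster over the stop codon (III 7496185 to 7496272, 8 reads) also carries the annotation of a polyadenylation site. All 14 3′ UTR clusters, with 31 reads, lay downstream of it, from III 7496128 down to 7495286, as far as 899 nt past that cluster. The exon named for all 14 was that of transcript C07H6.5.1 and not of C07H6.5.2.

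Counts by exon are given without a length, so they are not levels. In cgh-1, exon 4, the last, held 52 of 106 sense reads (49.1%, 39.2 to 59.0), exon 2 held 28, exon 3 held 21 and exon 1 held 5. In glh-1, exon 4 held 13 of 31 (41.9%, 24.5 to 60.9) and exon 1 held 8, and no sense read lay on exon 5. Sense reads of pgl-1 lay on each of exons 1 to 8, with 9 of 33 on exon 3. Those of pgl-3 lay on exons 3 to 8, with 7 of 24 on exon 7 and 6 on exon 3. In prg-1, exon 4 held 9 of 25 and exon 5 held 5. Exon numbers are those of the deposited annotation, for isoform a where a gene has several.

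The sense reads of csr-1 lay on exons 4, 5, 6, 7, 9 and 12, so its 5′ exons and some later exons held none. The gene has a long isoform, CSR-1A, that begins in exon 1 of transcript F20D12.1a, and a short isoform, CSR-1B, whose first exon corresponds to exon 2 of that transcript. The long isoform is known from spermatogenesis and the short one from the germ line throughout. Exon 1, which only the long isoform has, held 0 of the 19 sense reads, which allows a share of up to 15.8% (limit of 3 counts). Exons 2 and 3, which both isoforms share, also held 0. In the 3′ UTR on exon 12, 2 of the 19 sense reads lay in clusters that the annotation named for isoform a alone. Of the 6 antisense reads of csr-1, 3 lay on exons 1 to 3, 1 on each.

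No cluster on either strand was placed in an intron of the other 5 genes outside an exon, whereas an intron of cgh-1 was rich in reads. Intron 3 of cgh-1 holds the snoRNA gene C07H6.10, whose clusters had 150 reads (III 7496500 to 7496525, 26 nt wide) and 38 reads (III 7496553 to 7496579, 27 nt wide). Together these 188 reads (162 to 217) were 63.9% (58.2 to 69.4) of the sense reads on cgh-1 exons and this snoRNA. They are not exon reads and stay out of all counts of cgh-1. In contrast to the exons, where 106 reads were 103 distinct sequences, the 2 snoRNA clusters held 14 and 12 distinct sequences.

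In sense no single width held more than 17.2% of the narrow clusters of the 6 genes, at 19 nt. Among the 99 sense clusters of 18 to 26 nt, 32 were 21 to 23 nt wide (32.3%, 23.3 to 42.5), against 33.2% (32.7 to 33.8) for other protein-coding genes. The share at 22 nt was 9.09% (4.24 to 16.6) in the 6 genes and 11.2% (10.9 to 11.6) in the others, and at 18 to 20 nt it was 42.4% (32.5 to 52.8) and 38.3% (37.7 to 38.8). The intervals of the 6 genes included the value of the other genes at each of these widths.

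Clusters wider than 26 nt, formed by reads that overlap in part, made up 23.8% (16.8 to 32.1) of the sense clusters of the 6 genes and 14.2% (13.8 to 14.5) of those of other genes. By reads the shares were 50.8% (44.3 to 57.4) and 49.8% (49.4 to 50.2). cgh-1 set the share of the 6 genes, with 78 of its 106 sense reads in 16 wide clusters (73.6%, 64.1 to 81.7). Without cgh-1, a comparison added after the values were seen, the share of reads was 32.6% (24.7 to 41.3) and that of clusters 15.8% (9.12 to 24.7). The widest cluster measured 109 nt in cgh-1, 49 nt in glh-1, 47 nt in prg-1, 41 nt in pgl-3, 35 nt in csr-1 and 30 nt in pgl-1. Reads overlap more often where a gene has more of them, and the part of read density in this share was not tested.

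**Figure D3:**
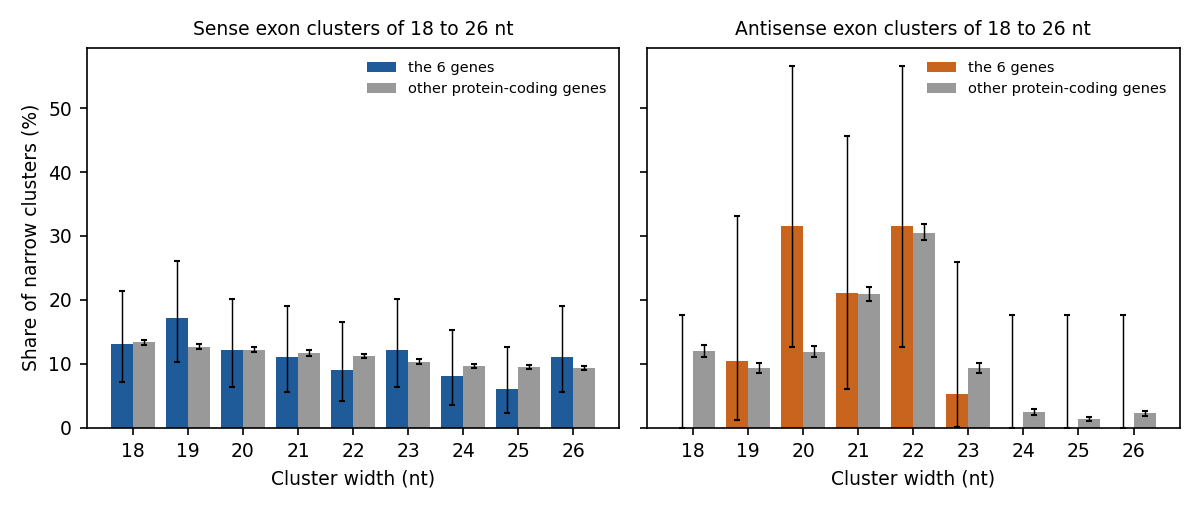
Share of exon clusters of 18 to 26 nt at each width in nt, for the 6 genes (coloured) and other protein-coding genes (grey), in sense (left) and antisense (right), with exact binomial 95% intervals. In sense no width holds more than 17.2% in the 6 genes, and in antisense 31.6% of the clusters of the 6 genes and 30.5% of those of other genes are 22 nt wide.

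Antisense reads were few but were found on all 6 genes. In the mapping class UNIQ40 of the deposited list, a setting added after the data were seen, glh-1 had 0, since both of its antisense clusters are of the other class, UNIQ10. At least 1 antisense read was found on 16.4% of protein-coding genes and on 62.5% of the 637 genes with at least 19 sense reads, which is the nearer background for these genes. The 637 also include genes of somatic tissues, such as unc-54, and none of the 10 muscle genes had an antisense read. In the lists below, 14 of 18 oocyte and embryo genes and 11 of 13 genes of the CGH-1 complex and decay had any. So did 10 of 14 other P granule genes and 5 of 18 other Argonaute genes. At least 5 were found on 3 of the 6 (cgh-1, csr-1 and prg-1), against 1.51% of all genes and 9.58% of those 637. cgh-1 had exactly 5, and it had 4 by distinct sequences, 2 by clusters and 1 in clusters of 18 to 26 nt. In these settings csr-1 and prg-1 stayed at 5 or more. Without its leading cluster prg-1 had 4. The background shares were not computed in these settings. The median was 4 antisense reads over the 6 genes and 1 over the 637.

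csr-1 had 6 antisense reads (2.20 to 13.1) in 6 clusters of 20 to 23 nt, on exons 1, 2, 3, 7, 9 and 11. prg-1 also had 6 (2.20 to 13.1), in 5 clusters on exons 2, 6, 8 and 9, and the cluster with 2 reads (I 7586289 to 7586310) was 22 nt wide and a single sequence. On the strand of these clusters the annotation places 3 within 1 kb downstream of D2030.12 and 2 in the promoter region of D2030.7, and their part in the antisense reads of prg-1 was not tested. cgh-1 had 5 antisense reads (1.62 to 11.7), of which 4 lay in a 49 nt cluster over the stop codon (III 7496166 to 7496214) and 1 in a 22 nt cluster in the 3′ UTR. pgl-1 had 3 antisense reads (0.619 to 8.77), all 20 nt wide and on exons 5, 7 and 8. glh-1 and pgl-3 had 2 each (0.242 to 7.22). Every interval overlapped every other, so the genes could not be ranked by antisense reads at this depth.

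As a share of exon reads, antisense reads made up 24.0% (9.36 to 45.1) in csr-1, 19.4% (7.45 to 37.5) in prg-1, 8.33% (1.75 to 22.5) in pgl-1, 7.69% (0.946 to 25.1) in pgl-3, 6.06% (0.743 to 20.2) in glh-1 and 4.50% (1.48 to 10.2) in cgh-1. Over the 6 genes the share was 9.16% (5.96 to 13.3), against 12.9% (12.6 to 13.1) for other protein-coding genes. The latter value pools all other protein-coding genes, whatever their sense reads. It was not computed for the 637 genes with at least 19 sense reads. In the gene lists below the share ran from 0% in muscle genes to 18.9% in genes of small RNA amplification and processing. In clusters of 18 to 26 nt alone it was 14.6% (9.15 to 21.6) for the 6 genes and 17.2% (16.8 to 17.6) for the others. The interval of the 6 genes included the value of the others in both settings. Over all widths the interval of cgh-1 lay below the pooled value of the other protein-coding genes. The intervals of the other 5 genes of the 6 included that value. In the 18 oocyte and embryo genes the share was 2.64% (1.77 to 3.77), a value within the interval of cgh-1. In cgh-1 4 of the 5 antisense reads lay in 1 cluster, and without the leading cluster on each strand its share was 1.04% (0.0264 to 5.67). Counted by clusters, the share of cgh-1 was 5.41% (0.661 to 18.2), against 14.3% for other genes, and in clusters of 18 to 26 nt it was 3.45% (0.0873 to 17.8), against 17.2%. Both of these intervals included the value of the other genes. The Argonaute genes csr-1 and prg-1 together had 12 antisense reads of 56 (21.4%, 11.6 to 34.4), and glh-1, pgl-1, pgl-3 and cgh-1 together 12 of 206 (5.83%, 3.05 to 9.95). That grouping was made after the values were seen, and the same share over 18 other Argonaute genes was 6.85% (4.04 to 10.7) and over 14 other P granule genes 13.0% (8.49 to 18.7).

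**Figure D4:**
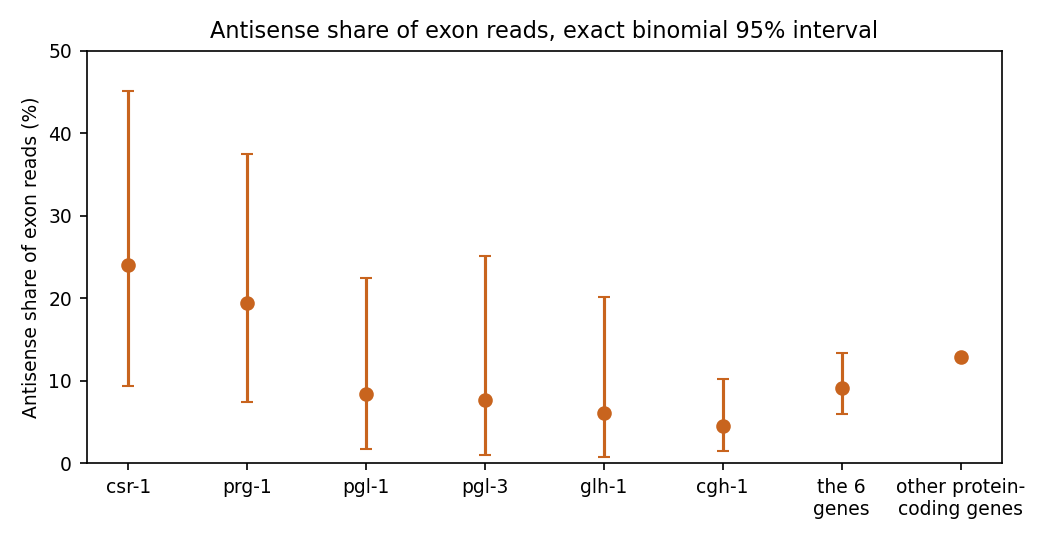
Antisense reads as a percentage of all exon reads for each gene, for the 6 genes together and for other protein-coding genes, with exact binomial 95% intervals; the interval of the last point is narrower than its symbol. The values run from 24.0% in csr-1 to 4.50% in cgh-1, with 12.9% for other genes, pooled whatever their sense reads.

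The antisense clusters of the 6 genes were mostly 20 to 22 nt wide. Of the 19 antisense clusters of 18 to 26 nt, 11 were 21 to 23 nt wide (57.9%, 33.5 to 79.7), against 60.8% (59.4 to 62.1) for other genes. The interval of the 6 genes overlapped that of their own sense clusters given above. At 20 nt there were 6 antisense clusters (31.6%, 12.6 to 56.6), against 11.9% (11.1 to 12.8) for other genes, and 3 of the 6 were those of pgl-1. At 22 nt there were 6 antisense clusters with 7 reads, 3 of them in prg-1 and 1 each in csr-1, cgh-1 and pgl-3. Thus 4 of the 6 genes had an antisense cluster of 22 nt, against 6.56% of all genes and 28.7% of the 637. No antisense cluster was 26 nt wide, the length of primary siRNAs of the ERGO-1 pathway. Such a cluster was found on 0.406% of all genes. Among the narrow antisense clusters of other genes 2.25% were 26 nt wide, a share too low for 19 clusters to show as different from 0. First bases are not listed, so siRNAs could not be told apart from other RNAs of the same length.

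Sense clusters covered 47.6% of the gene span in cgh-1, and from 6.03% in csr-1 to 20.2% in pgl-1 among the others, introns included. Of the 20 antisense clusters, 4 overlapped a sense cluster of the same gene. No such count was made for other genes, so it is a description only. The overlap was 30 nt at the stop codon of cgh-1, 20 nt and 7 nt in prg-1, and 6 nt in pgl-1. In prg-1 a 20 nt antisense read (I 7585379 to 7585398) lay wholly within a 26 nt sense read in the 3′ UTR. In csr-1 an antisense cluster (IV 7960004 to 7960024) began at the base after the end of a sense cluster (IV 7959982 to 7960003), without overlap.

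Other genes of the pathway were compared from lists of names. For the counts of genes with reads in these lists, the background over all protein-coding genes was 35.5% in sense and 16.4% in antisense. Of 14 other P granule genes, 13 had sense reads and 10 had antisense reads, with a median of 1.97 sense reads per kb. The leading gene was car-1, an Sm-like protein that acts with CGH-1, with 74 sense reads (47.1 per kb) and 6 in antisense. deps-1, needed for P granule assembly, had 24 sense reads (9.29 per kb) and 1 in antisense, and znfx-1, a helicase of the neighbouring Z granule, had 11 (1.16 per kb) and 3. The Vasa-type relatives glh-2, glh-3 and glh-4 had 10, 2 and 6 sense reads and 1, 3 and 2 antisense reads, and pgl-2 had 1 and 0.

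Of 18 other Argonaute genes, 13 had sense reads and 5 had antisense reads, with a median of 1.47 sense reads per kb. hrde-1, a nuclear germline Argonaute, had 79 sense reads (20.7 per kb) and 7 in antisense. wago-1, an Argonaute of P granules, had 53 sense reads (15.5 per kb) and 0 in antisense. ergo-1 had 20 sense reads (2.09 per kb) and 2 in antisense, and prg-2, the near relative of prg-1 that RefSeq annotates as a pseudogene, had 9 (3.17 per kb) and 0. The 5 Argonaute genes without a sense read were alg-3, alg-4, wago-10, wago-11 and sago-2. RefSeq annotates wago-11 as a pseudogene too, and it and prg-2 are counted among the 18. alg-3 and alg-4 are known from spermatogenesis. By the limit of 3 counts, a count of 0 allows up to 3 reads per gene.

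Genes of small RNA amplification and processing, with a median of 1.44 sense reads per kb, had 167 sense and 39 antisense reads over 23 genes, an antisense share of 18.9% (13.8 to 25), with sense reads on 22 of the 23 and antisense reads on 15. dcr-1, which encodes Dicer, had 15 sense and 6 antisense reads, and parn-1, a nuclease that trims piRNA ends, had 2 and 7. rde-4, a partner of Dicer, led the list with 25 sense reads (18.6 per kb), ahead of the helicase gene rde-12 with 19 and the RNA-dependent RNA polymerase gene ego-1 with 17.

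Of the genes of the CGH-1 complex and of messenger RNA decay, all 13 had sense reads, 332 in total with a median of 8.61 per kb, and 11 had antisense reads, 25 in total (7.0%, 4.58 to 10.2). These totals include car-1, which is also among the P granule genes above. The Y-box gene cey-2 had 95 sense reads (86.4 per kb) and 3 in antisense, and cey-4 had 34 (19.3 per kb) and 2. For the 18 oocyte and embryo genes the median was 18.8 sense reads per kb, and the antisense share was 2.64% (1.77 to 3.77). Antisense reads were found on 14 of the 18. The eggshell genes cpg-1 and cpg-2 led with 252 and 205 sense reads, followed by the yolk receptor gene rme-2 with 85, and puf-3 had 31 sense and 5 antisense reads.

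**Figure D5:**
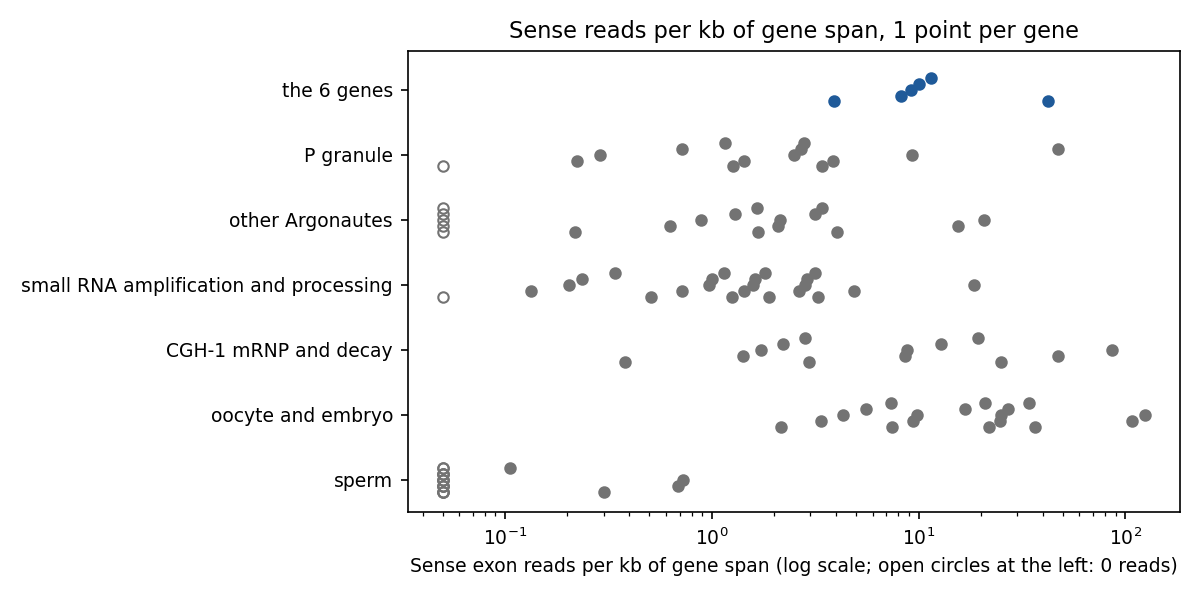
Sense exon reads per kb of gene span on a log scale, 1 point per gene, for the 6 genes (top row, blue) and 6 comparison lists (grey); open circles at the left edge are genes with 0 reads. The 6 genes lie between 3.88 and 42.2, with oocyte and embryo genes up to 124 and sperm genes at or below 0.723.

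Placement of the reads bears on genes with close relatives. In 7 of the 150 clusters, each of 1 read, a uniqueness value of the deposited list was 8, with 2 each in glh-1, pgl-1 and prg-1 and 1 in pgl-3. No cluster of cgh-1 or csr-1 had so low a value. The sources used here do not define this value, which was 2 times the width in 92 of the 102 clusters of 1 read. Reads that fit glh-1 and glh-2 or prg-1 and prg-2 equally well may be missing from all counts. The deposited list gives each cluster a mapping class, likewise undefined. Class UNIQ10 held 36 clusters with a median width of 19 nt. The other 114, in class UNIQ40, had a median width of 23.5 nt.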

How the data were processed

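Per the labels' protocols, RNA was extracted from whole worms with TRIZOL and sequenced by the Illumina small RNA method. The deposited list, assigned to the monophosphate library by its name, gives raw read counts per cluster of overlapping reads, without normalization, and names a PAR-CLIP program as its source. Bowtie2 2.1.0 is named in the submitters' processing notes; the sources used here do not give the build, trimming or filters. A score column of the deposited list, an entropy without a unit, was not used. The name of the list restricts it to reads of 18 to 26 nt, and the depth of the whole library is not known from it.

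A cluster was counted for a gene when an exon token of the deposited annotation bore the gene's sequence name. Clusters on a sequence named markov were left out, which left 49661 of the 51569 clusters, with 1412353 of the 1417144 reads. Background genes were the 19965 protein-coding genes of the WBcel235 RefSeq table with a sequence name; its gene lengths gave reads per kb, and none of its positions were used. Counting was tested on simulated data (200 genes, all totals recovered). Intervals were computed with SciPy 1.17.1 in Python 3.11.15; the labels mention no molecular identifiers, so reads may not be independent molecules. The 6 genes and the 10 lists (143 of 147 entries matched) were chosen with earlier results of these data known. Named list genes are the 3 with the most sense reads in each list and all with at least 5 antisense reads; other list genes named were chosen after their values were seen.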

Additional observations from a re-analysis of the deposited data

How the results depend on the processing

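The totals of 238 sense and 24 antisense reads were the same when clusters naming 1 gene, or with a uniqueness value of at least 5, were kept, since every cluster met both. Counting each cluster once gave 130 sense clusters, an antisense share of 13.3% and a share of wide clusters of 23.8%. Clusters of 18 to 26 nt alone held 117 sense reads, with an antisense share of 14.6%. Leaving out the leading cluster of each gene and strand left 14 antisense reads. Keeping the mapping class UNIQ40, added after the data were seen, left 206 sense reads, raised the share in wide clusters to 58.7% and the 21 to 23 nt share of narrow sense clusters to 45.6%; this class holds no cluster under 20 nt in these genes. Without cgh-1, also added later, the share of reads in wide clusters was 32.6%, and the share of sense reads on the leading exon of each gene was 33.3%, against 40.3% with it. The cause of these moves was not tested beyond what the settings leave out. The other 40 values over the 6 genes, 9 values of the antisense 21 to 23 nt share and 134 values per gene stayed within the counting interval of the reported value. Part of these could not move. The settings of 1 named gene and of uniqueness removed no cluster, and the 18 to 26 nt setting cannot alter the 21 to 23 nt share. The 10 values per gene that left the counting interval were these. In clusters of 18 to 26 nt, sense reads were 28 in cgh-1, 16 in glh-1 and 14 in pgl-3, and antisense reads 1 in cgh-1. Counted by clusters, sense gave 35 in cgh-1 and 19 in glh-1. Without leading clusters cgh-1 had 1 antisense read and an antisense share of 1.04%. In class UNIQ40 glh-1 had 0 antisense reads, a share of 0%. No paired analysis was possible because each group has 1 library. With 24 antisense reads in all, the intervals of the antisense counts of single genes overlapped.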

Other observations

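The library was made from whole worms, and markers of somatic tissues had reads as well. Over all protein-coding genes, 35.5% had at least 1 sense read and 16.4% at least 1 antisense read. Muscle genes had 415 sense reads on 10 of 10 genes and 0 antisense reads. unc-54, a myosin heavy chain gene, had 137 sense reads, unc-15, the paramyosin gene, 91 and unc-22, the twitchin gene, 58. The intestine list had 8669 sense reads and 1 in antisense, with sense reads on 8 of 10 genes, most of them on the yolk protein genes vit-6 (4468), vit-2 (2451) and vit-5 (1721). Neuronal genes had 23 sense and 3 antisense reads, in sense on 7 of 9 genes, led by snb-1 with 9 and egl-3 and egl-21 with 4 each. Epidermal genes had 47 sense reads on 4 of 10 genes, with 21 on the collagen gene sqt-3, 20 on the collagen gene col-19 and 4 on nhr-23, and 2 in antisense.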
